A study of Mus musculus with 20 samples.

Results

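The change over the last 24 h of culture was followed in mouse trunk-like structures in which WNT signalling was kept active and BMP receptors were blocked. The 3 libraries of structures at 120 h grown in Matrigel with CHIR99021 and LDN (called TLSMGCL in the labels) were compared with the 3 libraries of precursor structures at 96 h (called 96h). These 6 libraries are 6 of the 15 bulk RNA sequencing libraries, and of the 20 samples in all, of the series, and every gene with enough signal in the bulk libraries entered the comparison. All groups came from 1 mouse embryonic stem cell line, F1G4, that carries fluorescent reporters for Brachyury (T) and Sox2, and all were aggregated in suspension and given a pulse of 3 µM CHIR99021 at 48 h. Each 96h library held 10 pooled structures, and each TLSMGCL library held 6. The other bulk groups were collected at 120 h with 3 libraries each: gastruloids without Matrigel (Gastruloid), structures in Matrigel (TLSMG), and structures in Matrigel with CHIR99021 (TLSMGC). When, and at what dose, CHIR99021 and LDN were added after 96 h is not given in the sources used here. TLSMGCL differs from 96h in age, Matrigel, CHIR99021 and LDN at once, so their separate parts in a difference cannot be told apart in this contrast, and 1 line, with structures pooled and picked for a single reporter pole, stands for the model. The labels call the libraries biological replicates but do not say which separate cultures they came from, and p-values measure only the spread between these samples.

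CHIR99021 inhibits the kinase GSK3, which lets beta-catenin build up and switch on TCF/LEF target genes, many of which are themselves feedback inhibitors of WNT signalling. LDN is the short name used for inhibitors of the kinases of type I BMP receptors, which otherwise phosphorylate SMAD1 and SMAD5 and switch on the Id genes. In the elongating trunk, tailbud progenitors marked by T give rise to presomitic mesoderm, where WNT and FGF are high and a Notch clock runs. As cells leave it they form somites, which split into a ventral sclerotome, a source of cartilage, and a dorsal dermomyotome, a source of muscle and dermis. WNT from the overlying ectoderm and neural tube is known to favour dermomyotome, hedgehog and BMP inhibition are known to favour sclerotome, and higher BMP favours lateral and intermediate mesoderm over somites.

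The libraries were deposited as TPM, a level of transcripts scaled by their length and to the same total in every library, so the number of reads behind a value is unknown. The number of genes at 1 TPM or more was 14043 to 14128 at 96h and 13688 to 13910 in TLSMGCL. On log2(TPM + 1), TLSMGCL libraries correlated across genes with each other at a mean r of 0.987, with TLSMGC at 0.985 and with 96h at 0.951, which is a description over genes that are not independent. TLSMGCL replicate 2 stood apart in 2 ways: its nearest library was TLSMGC replicate 3 (r = 0.988), and its mitochondrial transcripts summed to 3438 TPM against up to 10645 TPM in the other replicates. Without it the count of called genes was 5439 against 5647 with it. The calls among 13 mitochondrial transcripts went from 1 fall to 5 rises, and the number of genes called in each of the other 33 gene lists described here moved by at most 3. RNA was extracted from whole pooled structures, and here fewer cells of a type and less RNA per cell cannot be told apart.

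Between 96h and TLSMGCL, 5647 of 14290 tested genes differed (39.5%; limma on log2(TPM + 1), Benjamini-Hochberg adjusted p under 0.05), of which 2487 rose (17.4%) and 3160 fell (22.1%). The excess of falls was smaller after median-of-ratios scaling (2884 rose, 2977 fell) and without TLSMGCL replicate 2 (2693 and 2746). On FPKM it was absent (2933 and 2887). The median log2 difference over all tested genes was -0.02. At a log2 difference of at least 1 in size, 1019 genes were called (7.13%), 394 higher and 625 lower in TLSMGCL. For 7343 of the 14290 tested genes the 3 TLSMGCL values and the 3 96h values did not overlap, so separate groups were common. Where separate groups are stated for a gene below, that describes its values and is no added support. Every list below is to be read against these shares of the background. The larger differences followed a common outline: markers of presomitic mesoderm, tailbud, pluripotency, FGF ligands and lateral and intermediate mesoderm were lower at 120 h, and genes of the dermomyotome, some WNT feedback genes and posterior Hox genes were higher.

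**Figure D1:**
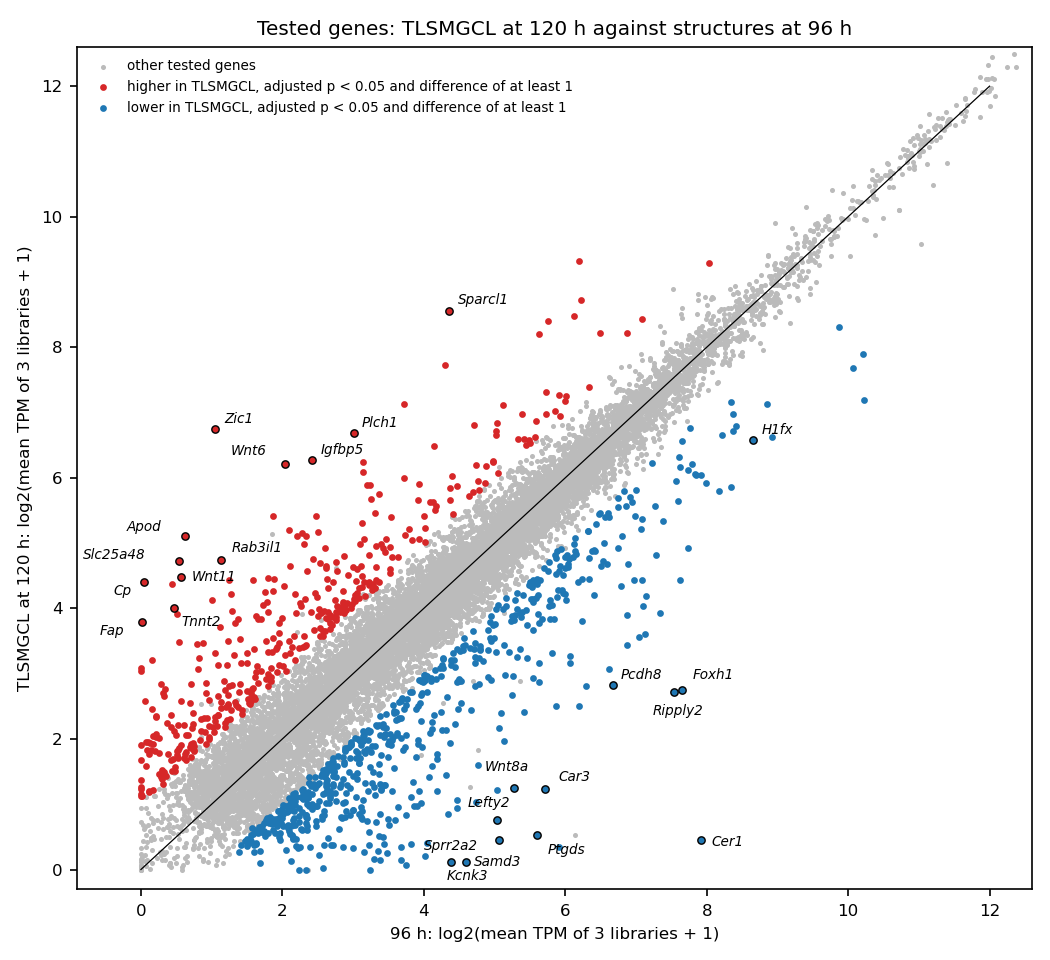
Log2 of the mean TPM + 1 of the 3 96h libraries (horizontal axis) against the same for the 3 TLSMGCL libraries (vertical axis), 1 point per tested gene, with the line of equality. Red and blue points are the 394 higher and 625 lower genes past the test with a log2 difference of at least 1 in size, and the 12 largest rises and the 12 largest falls carry their symbols, with Zic1 farthest above the line and Cer1 farthest below it.

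The largest rise among named genes was that of Zic1, a zinc finger factor of the dorsal neural tube and dorsal somite (chromosome 9, 91358058 to 91365810 in mm10). It measured 1.24, 0.916 and 1.07 TPM at 96h and 120.0, 83.1 and 116 TPM in TLSMGCL (log2 difference 5.68, SE 0.32, adjusted p = 1.4e-08). Groups that did not overlap were a condition for the 12 largest rises and falls, so their separation is no added support. Apod, a lipid-binding secreted protein, measured 0.47, 0.524 and 0.637 TPM at 96h and 33.5, 31.7 and 35.8 TPM in TLSMGCL (log2 difference 4.49 ± 0.16 SE). Cp, which encodes the copper-carrying ferroxidase ceruloplasmin, was listed at 0, 0 and 0.10 TPM at 96h and at 23.2, 12.9 and 24.4 TPM in TLSMGCL. Both were near the bottom of the scale at 96h and readily measured at 120 h. Sparcl1, a matrix-associated glycoprotein, stood at 24.7, 18.1 and 15.7 TPM before and 408, 301 and 423 TPM after (log2 difference 4.21, SE 0.20, adjusted p = 3.3e-09). The remaining 8 of the 12 were Wnt6, Wnt11, Slc25a48, Igfbp5, Fap, Plch1, Rab3il1 and Tnnt2, with log2 differences of 3.56 to 4.24. Tnnt2, cardiac troponin T, which early skeletal muscle also uses, measured 0.12, 0.715 and 0.295 TPM at 96h and 16.6, 12.6 and 16.2 TPM in TLSMGCL.

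The largest fall was that of Cer1, a secreted antagonist of Nodal, BMP and WNT that the anterior presomitic mesoderm and newest somites transcribe (chromosome 4, 82881751 to 82885148 in mm10). It measured 404, 179 and 138 TPM at 96h and 0.331, 0.308 and 0.459 TPM in TLSMGCL (log2 difference -7.31, SE 0.30, adjusted p = 7.7e-10). 96h replicate 1 held the highest value, and lack of overlap was again a condition of the naming. Foxh1, the partner of SMAD2 in Nodal signalling, measured 243, 187 and 171 TPM at 96h and 5.25, 5.67 and 6.33 TPM in TLSMGCL (log2 difference -4.88, SE 0.16, adjusted p = 2.3e-10). Lefty2, a feedback inhibitor of Nodal, went from 22.1, 45 and 27.8 TPM to 0.795, 0.803 and 0.501 TPM. Nodal's partner factor and its inhibitor thus both fell. Ptgds, prostaglandin D synthase, measured 52.8, 47.7 and 42.4 TPM at 96h and 0.321, 0.522 and 0.494 TPM in TLSMGCL (log2 difference -5.07 ± 0.17 SE). The other falls among the 12 were Ripply2, Sprr2a2, Car3, Samd3, Kcnk3, Wnt8a and Pcdh8, with log2 differences of -4.80 to -3.86, and H1fx. The linker histone gene H1fx was listed at 436, 390.1 and 383 TPM at 96h but at 0, 284 and 0 TPM in TLSMGCL. It overlaps another annotated gene on the same strand, so its zeros are uncertain and its fall is given only as listed.

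Among WNT feedback genes and targets, 8 of 16 tested members rose, 2 fell and 6 did not pass the test (median log2 difference 0.34 against -0.02 over all tested genes). The rises were spread over secreted and intracellular inhibitors: Notum, Nkd1, Apcdd1 and Axin2, the receptor Tnfrsf19 and the factors Sp5, Tcf7 and Myc. Notum, an enzyme that removes the lipid WNT ligands need, measured 6.55, 9.09 and 12.2 TPM at 96h and 57.1, 57.5 and 43.4 TPM in TLSMGCL (log2 difference 2.41, SE 0.18, adjusted p = 2.3e-07). Nkd1, which acts on Dishevelled, measured 56.4, 64.4 and 67.8 TPM at 96h and 150.5, 133 and 149 TPM in TLSMGCL (log2 difference 1.18 ± 0.10 SE). Both were higher in every TLSMGCL library than in any 96h library. Apcdd1, a membrane inhibitor of WNT, measured 10.3, 10.7 and 10.5 TPM at 96h and 23.8, 23.5 and 22.3 TPM in TLSMGCL (log2 difference 1.07 ± 0.09 SE). Axin2, a scaffold of the beta-catenin destruction complex and a widely used WNT readout, measured 59.3, 57.6 and 53.5 TPM at 96h and 114, 73.6 and 82.8 TPM in TLSMGCL (log2 difference 0.63, SE 0.17, adjusted p = 0.0084). TLSMGCL replicate 1 held the highest Axin2 value, and the groups did not overlap. Sp5, a repressor that dampens WNT targets, measured 73.7, 105 and 116 TPM at 96h and 141, 136 and 137 TPM in TLSMGCL (log2 difference 0.51, SE 0.17, adjusted p = 0.031). That call was lost without 96h replicate 1 (log2 difference 0.32, adjusted p = 0.15) and without any 1 TLSMGCL replicate (adjusted p = 0.058 to 0.074).

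The fall of Lef1, a TCF/LEF factor through which beta-catenin acts, ran against this pattern. Its level was 365, 317 and 305 TPM at 96h and 114, 95.9 and 104 TPM in TLSMGCL (log2 difference -1.64, SE 0.12, adjusted p = 2.0e-07). Sp8, a relative of Sp5 in the tailbud, also fell (log2 difference -0.59 ± 0.11 SE). Nkd2, Rnf43, Znrf3, Dkk1, Lgr5 and Ccnd1 did not pass the test. For Nkd2 the log2 difference was 0.05 with a 95% interval of -0.21 to 0.32. Ccnd1, cyclin D1, measured 109, 109 and 109 TPM at 96h and 97.9, 100.4 and 96.5 TPM in TLSMGCL, a difference of -0.15 with an interval of -0.29 to -0.01.

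The direct contrasts at 120 h test whether the change from 96h differed between groups. They set many of these WNT genes, though not all, apart from the structures without added CHIR99021. Of the 16 tested members, 9 were above TLSMG (9.31% of all tested genes were) and 2 below it (35.6%). Against Gastruloid 13 were above (15%) and 2 below (21.1%). All comparisons with 96h share the same 3 libraries, so each group's values are given side by side. Notum measured 2.56 ± 0.277 TPM (SD, n = 3) in Gastruloid, 2.38 ± 0.52 in TLSMG and 67 ± 5.98 in TLSMGC. For Sp5 the same groups gave 3.72 ± 1.06, 7.2 ± 0.849 and 177 ± 18.3 TPM. In both cases TLSMGCL was close to TLSMGC and far above the groups without CHIR99021 (TLSMGCL minus TLSMG: Notum 3.99 ± 0.18 and Sp5 4.09 ± 0.17 SE). Tcf7 was the 1 member of this list that differed from TLSMGC, where 1.18% of all tested genes were called, at 165 ± 6.12 TPM there and 128 ± 11.1 in TLSMGCL (log2 difference -0.37, SE 0.08, adjusted p = 0.04). That call was lost without any 1 library of these 2 groups (adjusted p = 0.053 to 0.13).

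**Figure D2:**
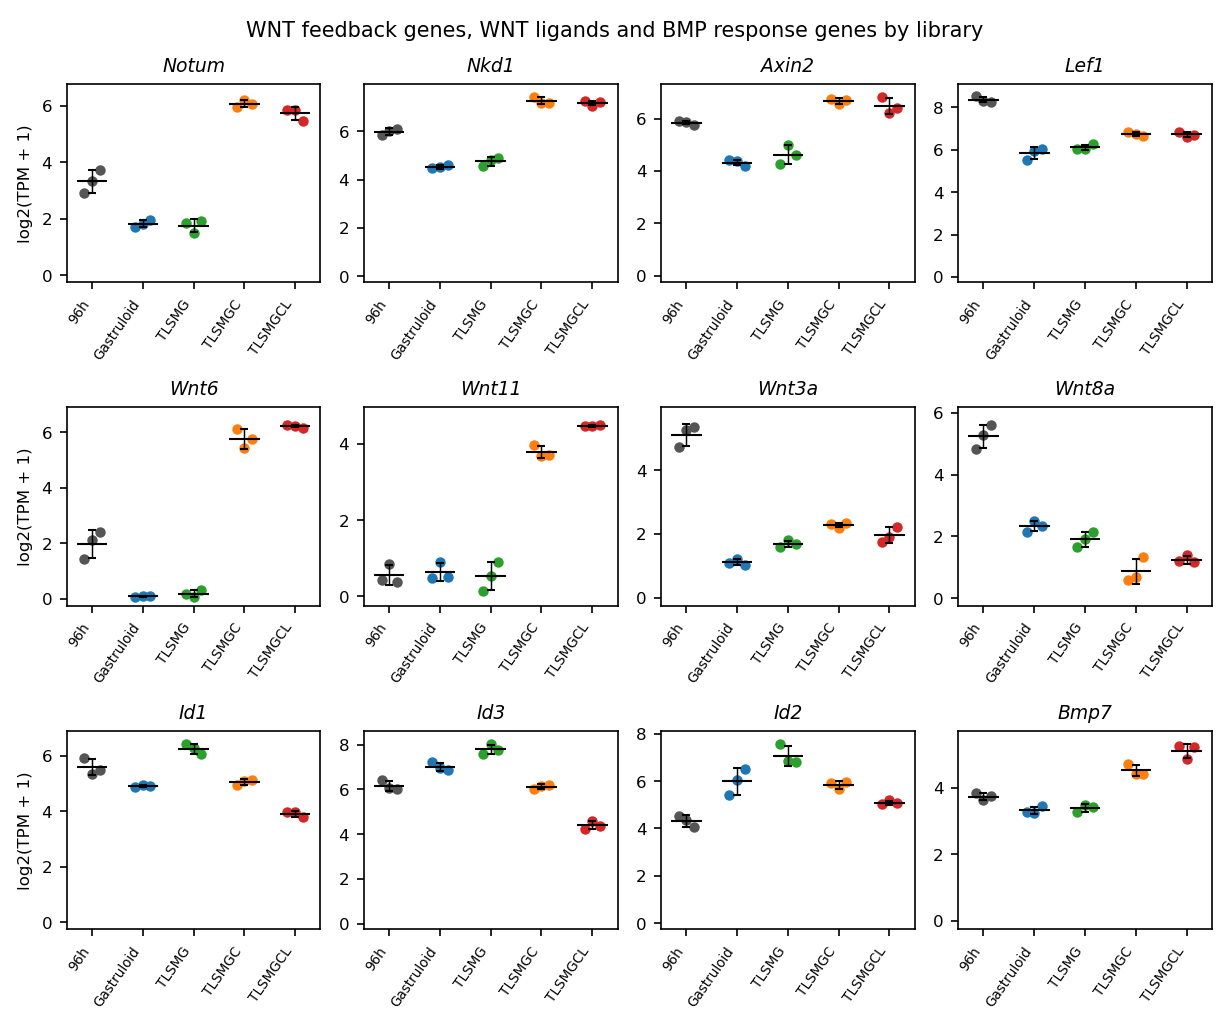
Log2(TPM + 1) of 12 WNT and BMP genes (vertical axes, each from 0) in the 5 bulk groups, 1 point per library, with the mean and SD of the 3. Notum, Nkd1, Wnt6 and Wnt11 sit high in both groups with added CHIR99021, and Id1 and Id3 sit lower in TLSMGCL than in every other group.

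To show what these promoters hold, the 250 bases before each gene's start in RefSeq (build GRCm38.p6) were searched on both strands for the 7 letters CTTTGAA or CTTTGAT, read as TTCAAAG or ATCAAAG on the other strand, which is the core that TCF/LEF factors are known to bind. Such letters were present before 2457 of 32851 promoters of the table (7.48%) and before 593 of 9607 tested genes with a promoter there (6.17%). They were present in 19 of 239 genes (7.95%) that rose by at least 1 on the log2 scale and in 33 of 420 (7.86%) that fell by as much. Among genes with a promoter in the table, 4 of 10 WNT feedback genes, 3 of 11 tailbud genes and 2 of 15 presomitic genes held a match. Windows of 30 bases to each side, within the searched bases, are shown 5′ to 3′ on the gene's strand with the matched letters in capitals, for the 2 WNT feedback genes that rose and held a match and for 2 presomitic genes that fell. The other 2 WNT feedback genes with a match, not printed, were Sp8, which fell, and Dkk1, which did not pass the test. They are Sp5 (chr2:70474789-70474855, plus strand), Tnfrsf19 (chr14:61038153-61038219, minus strand, 1 of its 2 promoters), Msgn1 (chr12:11209055-11209181, minus strand) and Mesp1 (chr7:79793591-79793693, minus strand).
Sp5: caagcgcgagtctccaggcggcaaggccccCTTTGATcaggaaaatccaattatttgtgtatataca
Tnfrsf19: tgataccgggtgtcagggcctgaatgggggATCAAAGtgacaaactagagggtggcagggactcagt
Msgn1: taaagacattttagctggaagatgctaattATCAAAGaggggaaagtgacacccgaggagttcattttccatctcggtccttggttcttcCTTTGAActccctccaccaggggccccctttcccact
Mesp1: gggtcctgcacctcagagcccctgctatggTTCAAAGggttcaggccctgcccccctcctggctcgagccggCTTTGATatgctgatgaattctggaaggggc
Each presomitic promoter held 2 matches, 1 in each orientation, and the WNT promoters held 1 each. A match is a description of the letters and not of binding, and genes that rose and genes that fell by at least 1 held it at nearly the same share.

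WNT ligands moved in opposite directions. Of 9 tested ligands and R-spondins 2 rose and 6 fell (median -0.88). The ligands of tailbud and presomitic mesoderm were among the falls: Wnt3a, a canonical ligand that maintains axial progenitors, measured 25.2, 37.2 and 40 TPM at 96h and 2.36, 2.75 and 3.68 TPM in TLSMGCL (log2 difference -3.15, SE 0.16, adjusted p = 5.8e-09). Wnt8a, a primitive streak ligand, measured 27.7, 38.2 and 47.4 TPM at 96h and 1.28, 1.63 and 1.22 TPM in TLSMGCL (log2 difference -4.00 ± 0.22 SE). Rspo3, a secreted protein that raises WNT receptor levels, measured 142, 173 and 169 TPM at 96h and 15.7, 13.8 and 13.3 TPM in TLSMGCL (log2 difference -3.41, SE 0.20, adjusted p = 2.0e-08). None of these 3 genes had overlapping groups, which held for 7343 of all 14290 tested genes and for Wnt8a was a condition of the naming. Wnt5a, which acts mainly outside the beta-catenin route, fell by 2.04 on the log2 scale, and Wnt5b by 0.88. The rises were those of Wnt6, an ectoderm and dermomyotome ligand, and Wnt11, a ligand of the dermomyotome edge. Wnt6 measured 1.69, 3.37 and 4.26 TPM at 96h and 75.3, 73.9 and 71.1 TPM in TLSMGCL (log2 difference 4.24, SE 0.21, adjusted p = 4.3e-09). Wnt11 measured 0.356, 0.809 and 0.289 TPM at 96h and 21, 21.3 and 21.7 TPM in TLSMGCL (log2 difference 3.93, SE 0.19, adjusted p = 3.1e-09). Both were low in all 96h libraries and nearly equal in all 3 TLSMGCL libraries. At 120 h, Wnt6 stood at 0.0624 ± 0.0201 TPM in Gastruloid, 0.138 ± 0.0953 in TLSMG and 54.6 ± 13.6 in TLSMGC.

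WNT receptors and secreted inhibitors showed no common direction, with 6 of 20 tested members higher, 8 lower and a median of 0.01. The secreted inhibitor Sfrp5 measured 20.3, 8.08 and 7.15 TPM at 96h and 0.17, 0.339 and 0.304 TPM in TLSMGCL (log2 difference -3.20, SE 0.26, adjusted p = 5.7e-07). Another of the same family, Frzb, fell by 1.67, Sfrp1 fell by 1.00, and Sfrp2 rose by 0.88. Among the Frizzled receptors, Fzd9 and Fzd6 rose by 1.30 and 0.94, and Fzd4, Fzd10 and Fzd1 fell by 1.20, 0.70 and 0.68. The co-receptor Lrp5 rose by 0.59, and for its relative Lrp6 the difference of -0.27 did not pass the test (interval -0.56 to 0.01).

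The immediate targets of BMP receptors did not move together. Of 10 tested response genes 3 rose, 3 fell and 4 did not pass the test (median 0.05). The 6 calls came to 60% of the list, against 39.5% of all tested genes, and were divided evenly between the directions. The summed level of the 12 listed genes was lower, at 168 to 214 TPM at 96h and 119 to 130 TPM in TLSMGCL. Id1, an inhibitor of helix-loop-helix factors, measured 59.5, 40 and 43.9 TPM at 96h and 14.5, 14.7 and 12.8 TPM in TLSMGCL (log2 difference -1.68, SE 0.13, adjusted p = 2.2e-07). Id3, of the same family, measured 84.9, 66.1 and 63 TPM at 96h and 17.9, 23 and 19.4 TPM in TLSMGCL (log2 difference -1.77, SE 0.14, adjusted p = 2.9e-07). In both, every TLSMGCL value was below every 96h value. Tbx3, a repressor that BMP can induce, fell by 0.92. Their relative Id2 measured 21.9, 19.5 and 15.5 TPM at 96h and 31.4, 35.3 and 32.4 TPM in TLSMGCL (log2 difference 0.78 ± 0.25 SE), higher in all 3 TLSMGCL libraries. Atoh8 rose by 0.78 and Msx2, a homeobox target, by 0.65. The feedback inhibitors Smad6, Smad7 and Bambi and the target Msx1 did not pass the test. Smad7 was called lower with a pseudocount of 0.1 (adjusted p = 0.043) and without TLSMGCL replicate 1 (0.044). Smad6, an inhibitory SMAD, measured 7.3, 6.78 and 5.89 TPM at 96h and 6.09, 6.16 and 6.4 TPM in TLSMGCL, a difference of -0.08 with a 95% interval of -0.28 to 0.12. The rise of Id2 was lost without TLSMGCL replicate 2 (adjusted p = 0.059) or 96h replicate 3 (0.085), and that of Msx2 without 96h replicate 3 (0.055).

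The direct contrasts placed Id1 and Id3 below every other group at 120 h. Id3 measured 128 ± 16.6 TPM (SD, n = 3) in Gastruloid, 221 ± 33 in TLSMG, 68.9 ± 5.05 in TLSMGC and 20.1 ± 2.6 in TLSMGCL. Against TLSMGC, which differs from TLSMGCL by LDN alone per the labels, the log2 difference was -1.73 (SE 0.14, adjusted p = 4.7e-05). For Id1 it was -1.15 (SE 0.13, adjusted p = 5.1e-04). Msx1 did not pass against 96h but was lower than in TLSMGC, at 17.7 ± 2.2 TPM against 40.7 ± 4.63 (log2 difference -1.16, SE 0.20, adjusted p = 0.012), a call lost without TLSMGCL replicate 1 or 3 or TLSMGC replicate 2 (adjusted p = 0.052 to 0.060). Against TLSMGC as a whole, 169 of 14290 genes were called (1.18%), 58 higher and 111 lower in TLSMGCL. That count was 43 in a fit of only these 2 groups, 70 and 78 without TLSMGCL replicate 1 or 3 and 56 without TLSMGC replicate 2, and after median-of-ratios scaling the split was 104 and 101. Id1 and Id3 were called in each of these. Endothelial cells also use Id genes, and the summed level of all 12 tested endothelial markers was 31 to 39.8 TPM at 96h, 31.2 to 50.4 in TLSMGCL, 50.3 to 125 in TLSMGC and 326 to 396 in TLSMG. Their part in the differences at 120 h was not tested, and between 96h and TLSMGCL the ranges overlapped.

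Genes of BMP ligands and antagonists were mostly higher in TLSMGCL. Of 6 tested ligands 4 rose and 1 fell (median 0.49), and of 9 tested antagonists 5 rose and 2 fell (median 0.46). Bmp7 measured 13.2, 11.3 and 12.5 TPM at 96h and 36.8, 28 and 36.5 TPM in TLSMGCL (log2 difference 1.37, SE 0.12, adjusted p = 9.7e-07). Bmp5 measured 1.38, 0.702 and 0.623 TPM at 96h and 7.61, 4.01 and 7.14 TPM in TLSMGCL (log2 difference 1.91, SE 0.22, adjusted p = 1.6e-05), with TLSMGCL replicate 2 the lowest of its group. Bmp2 fell by 0.88, and for Bmp4 the difference of -0.19 did not pass the test. Bmp3, a divergent family member outside the fixed list, was among the genes apart from all groups at 120 h, at 1.16, 0.892 and 0.95 TPM at 96h and 18.8, 13.1 and 17.8 TPM in TLSMGCL (log2 difference 3.12 ± 0.24 SE). On the inhibitor side, follistatin, Fst, measured 33.4, 44.7 and 40.6 TPM at 96h and 69.9, 64.7 and 70.6 TPM in TLSMGCL (log2 difference 0.78 ± 0.12 SE). Nbl1, Chrd and Nog, which bind BMPs outside the cell, rose by 0.63, 0.75 and 0.46. Bmper and Twsg1 fell by 0.91 and 0.58. Although noggin rose from 96h, TLSMGCL held less of it than TLSMGC, 1.84 ± 0.321 against 7.41 ± 0.795 TPM (log2 difference -1.57, SE 0.13, adjusted p = 5.7e-05). From 96h its rise was lost without TLSMGCL replicate 3 (adjusted p = 0.063) or 96h replicate 3 (0.066), and that of Nbl1 without TLSMGCL replicate 1 (0.054), 96h replicate 2 (0.051) or 96h replicate 3 (0.080). Among 9 receptors and SMADs 1 rose and 4 fell (median -0.26). Smad1 fell by 0.55, Acvr2b by 0.73, and for the receptor Bmpr1a the difference was -0.04 (interval -0.25 to 0.18).

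Presomitic mesoderm genes fell almost as a block: 16 of 18 tested members fell and none rose (median -2.39), and their summed level went from 2855 to 2936 TPM to 539 to 611 TPM. Tbx6, the T-box factor that commits cells to paraxial mesoderm, measured 254, 349 and 365 TPM at 96h and 55.2, 61.9 and 54.2 TPM in TLSMGCL (log2 difference -2.46, SE 0.26, adjusted p = 6.4e-06). Msgn1, whose promoter is printed above, measured 98.9, 138 and 172 TPM at 96h and 15, 17 and 14.2 TPM in TLSMGCL (log2 difference -3.04, SE 0.22, adjusted p = 1.5e-07). The groups of both genes lay well apart. Mesp2, which sets the segment border, measured 122, 140.2 and 131 TPM at 96h and 11.6, 11.3 and 9.66 TPM in TLSMGCL (log2 difference -3.48, SE 0.26, adjusted p = 2.0e-07). Ripply2, the repressor that closes the border phase, measured 208, 185 and 159 TPM at 96h and 5.21, 6.08 and 5.47 TPM in TLSMGCL (log2 difference -4.80, SE 0.34, adjusted p = 1.2e-07). Both border genes were far lower in every TLSMGCL library than in any 96h library. The clock and Notch genes Hes7, Lfng, Dll1, Dll3 and Nrarp fell by 1.84, 2.81, 2.31, 1.89 and 1.81. Notch1, the receptor, fell by 1.09. Only Heyl and Ripply1 of the 18 did not pass the test, with differences of 0.04 and -0.24.

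Of these 18 genes, 9 were above TLSMG in the direct contrast (9.31% of all tested genes were) and 2 were below it (35.6%). After median-of-ratios scaling 10 were above TLSMG and 1 was below. Against Gastruloid 12 were above (15% of all tested genes were) and 1 was below (21.1%). Msgn1 measured 0.165 ± 0.164 TPM (SD, n = 3) in Gastruloid, 1.19 ± 0.575 in TLSMG, 36.6 ± 8.15 in TLSMGC and 15.4 ± 1.45 in TLSMGCL. TLSMGCL was above TLSMG (log2 difference 2.93, SE 0.22, adjusted p = 2.9e-07) and below TLSMGC (log2 difference -1.18, SE 0.22, adjusted p = 0.019). The call against TLSMGC was lost with a pseudocount of 0.1 (adjusted p = 0.21) and without TLSMGCL replicate 1 or 3 or TLSMGC replicate 1 or 3 (0.056 to 0.078). For Tbx6 the means were 2.88, 6.02 and 61.6 TPM, and TLSMGCL, at 57.1 TPM, did not pass the test against TLSMGC (difference -0.11, interval -0.67 to 0.45). Notch1 was above all 3 other groups at 120 h, at 93.8 ± 15.2 TPM against 58.6 ± 8.48 in TLSMGC, though its call against TLSMGC was lost without TLSMGCL replicate 1 or 3 or TLSMGC replicate 2 or 3 (adjusted p = 0.091 to 0.17).

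Genes of the tailbud and of axial progenitors fell in 12 of 17 tested cases and rose in 3 (median -0.90). T, Brachyury, which also drives 1 of the reporters, measured 76.3, 120.0 and 134 TPM at 96h and 32.3, 34.4 and 34.2 TPM in TLSMGCL (log2 difference -1.64, SE 0.19, adjusted p = 1.9e-05). Nkx1-2, a marker of neuromesodermal progenitors, measured 84.1, 141 and 184 TPM at 96h and 71.3, 74.7 and 61.3 TPM in TLSMGCL (log2 difference -0.90, SE 0.29, adjusted p = 0.024). Sall4, a zinc finger factor shared with pluripotent cells, measured 209.6, 187 and 179 TPM at 96h and 52, 46.3 and 48.9 TPM in TLSMGCL (log2 difference -1.94, SE 0.09, adjusted p = 3.3e-09). Levels of T and Nkx1-2 stayed above 30 TPM in every TLSMGCL library. The fall of Nkx1-2 was lost without TLSMGCL replicate 3 (adjusted p = 0.076), 96h replicate 2 (0.071) or 96h replicate 3 (0.11). Cyp26a1, the enzyme that clears retinoic acid from the tailbud, measured 18.4, 18.3 and 20 TPM at 96h and 1.51, 1.78 and 1.9 TPM in TLSMGCL (log2 difference -2.87, SE 0.21, adjusted p = 1.7e-07). Rises were seen for Cdx4, a posterior homeobox factor at 3.0, 5.55 and 6.76 TPM at 96h and 12.8, 12.5 and 14.9 TPM in TLSMGCL, for Gdf11 (difference 0.60) and for Epha5 (difference 1.23). Cdx2, a regulator of trunk identity, measured 77.3, 115 and 135 TPM at 96h and 89.8, 101 and 84.8 TPM in TLSMGCL, and its difference of -0.21 did not pass the test (interval -0.66 to 0.23). Cdx1 fell by 1.14 but stood at 143 ± 6.24 TPM in TLSMGCL against 3.32 ± 0.555 in TLSMG (direct log2 difference 5.06 ± 0.19 SE).

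**Figure D3:**
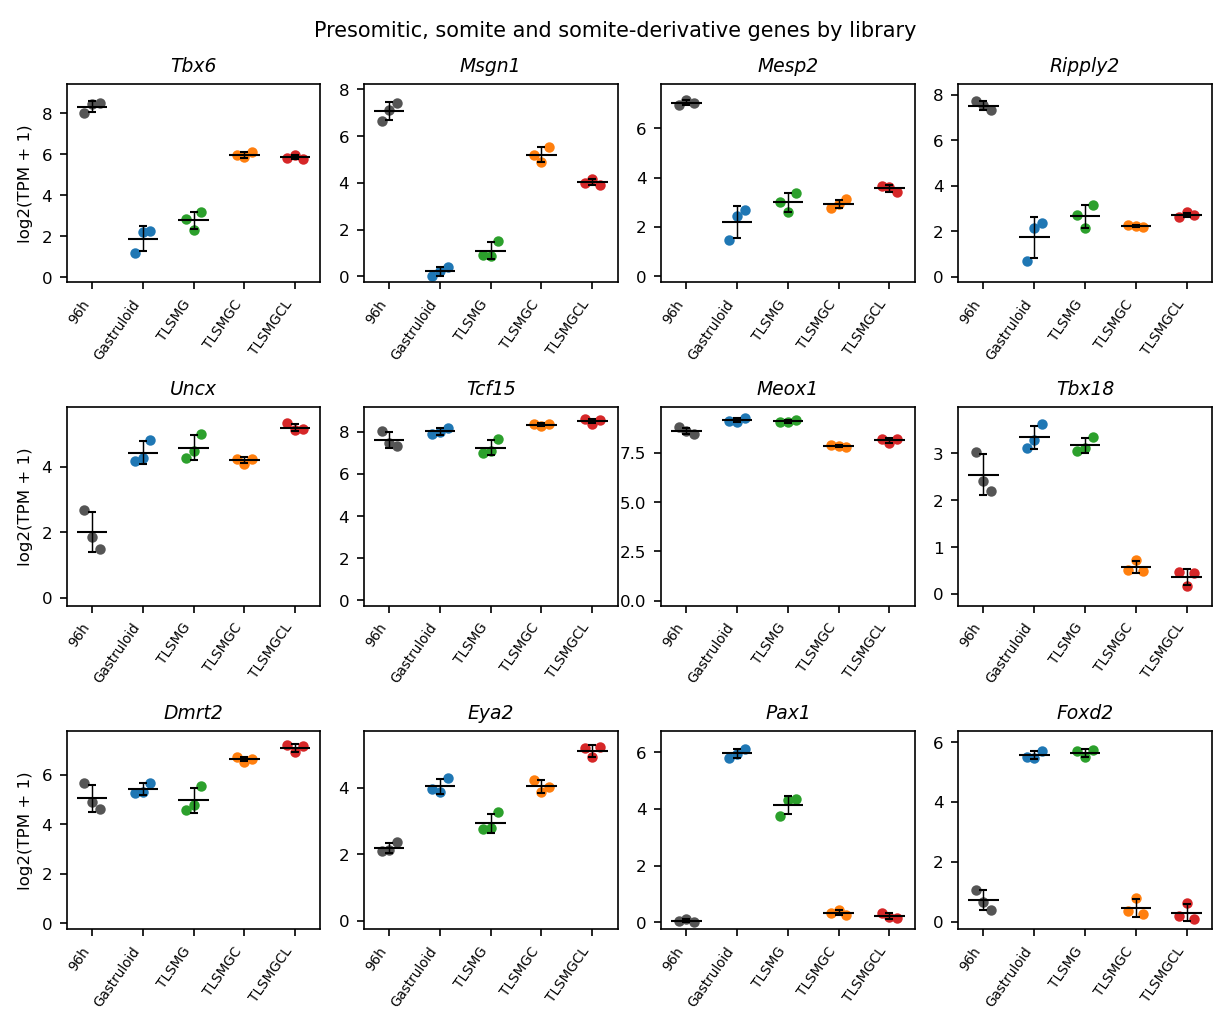
Log2(TPM + 1) of 12 genes of presomitic mesoderm, somites and their derivatives (vertical axes, each from 0) in the 5 bulk groups, 1 point per library, with the mean and SD of the 3. Tbx6, Msgn1, Mesp2 and Ripply2 drop from 96h to TLSMGCL, Dmrt2 and Eya2 climb, and Pax1 and Foxd2 stay near 0 in TLSMGCL.

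FGF signalling genes mostly fell, as the tailbud genes did. Some genes belong to more than 1 list, such as Sp8, and Fgf8 also marks the tailbud, so the lists are not independent. All but 1 of 8 tested ligands fell and none rose (median -2.04). Fgf4, a streak and presomitic ligand, measured 19.4, 28.6 and 30.4 TPM at 96h and 2.11, 1.87 and 2.15 TPM in TLSMGCL (log2 difference -3.13, SE 0.19, adjusted p = 3.9e-08). Fgf8, the main ligand of the tailbud gradient, measured 57.6, 73.2 and 77.3 TPM at 96h and 25.6, 32.6 and 27.6 TPM in TLSMGCL (log2 difference -1.25, SE 0.16, adjusted p = 3.9e-05). Fgf18 measured 45.6, 38.9 and 40.3 TPM at 96h and 4.48, 3.38 and 5.19 TPM in TLSMGCL (log2 difference -3.0 ± 0.16 SE). No 96h value of these 3 ligands overlapped a TLSMGCL value, which held for 7343 of all 14290 tested genes. Fgf17, at 23.3, 30.8 and 36.9 TPM at 96h and 26.8, 33.3 and 25.7 TPM in TLSMGCL, did not pass the test (difference -0.07, interval -0.76 to 0.63). Receptors and feedback genes of the ERK pathway fell in 13 of 15 tested cases, and 1, Fgfbp3, rose (median -0.88). That single rise, of a secreted FGF carrier, came to a difference of 0.45 (adjusted p = 0.10) without 96h replicate 1 and was also lost without TLSMGCL replicate 1 (0.058) or 2 (0.079). Spry4, an ERK feedback inhibitor, measured 20.3, 22.4 and 23.3 TPM at 96h and 5.29, 4.96 and 4.34 TPM in TLSMGCL (log2 difference -1.97, SE 0.16, adjusted p = 5.1e-07). The target factors Etv4 and Etv5 fell by 0.70 and 0.88, Dusp6, an ERK phosphatase, by 0.68, and the receptor Fgfr1 by 1.27.

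Genes of retinoic acid handling moved in both directions. Of 11 tested, 2 rose and 6 fell (median -0.28). Aldh1a2, which makes retinoic acid in somites and anterior presomitic mesoderm, measured 1346, 1166 and 1056 TPM at 96h and 239, 222 and 249 TPM in TLSMGCL (log2 difference -2.32, SE 0.12, adjusted p = 7.7e-09). It still stood above the other groups at 120 h, with 40.9 ± 5.02 TPM in Gastruloid, 36.6 ± 3.55 in TLSMG and 135 ± 20.7 in TLSMGC, and all 3 direct contrasts passed the test. Rdh10, which carries out the step before it, measured 11.2, 7.38 and 7.11 TPM at 96h and 53.5, 41.4 and 55.9 TPM in TLSMGCL (log2 difference 2.44, SE 0.16, adjusted p = 5.7e-08). Stra6, the membrane receptor for retinol uptake, measured 65.5, 70.1 and 69.9 TPM at 96h and 379, 330.1 and 361 TPM in TLSMGCL (log2 difference 2.36, SE 0.15, adjusted p = 4.7e-08). Transcripts of Stra6 and Rdh10 were thus higher, and those of Aldh1a2 lower, in all 3 TLSMGCL libraries than in any 96h library. Rarb, a receptor and common target of retinoic acid, measured 11, 8.11 and 6.8 TPM at 96h and 1.53, 1.53 and 1.49 TPM in TLSMGCL (log2 difference -1.91, SE 0.21, adjusted p = 8.2e-06), and Rarg and Rara fell by 0.50 and 0.28. The fall of Rarg was lost without TLSMGCL replicate 3, 96h replicate 2 or 96h replicate 3 (adjusted p = 0.052 to 0.071). Crabp1, a cellular carrier of retinoic acid, measured 551, 458 and 467 TPM at 96h and 554, 683 and 603 TPM in TLSMGCL and did not pass against 96h (difference 0.32), but was above TLSMGC by 0.78 ± 0.17 (SE) on the log2 scale, a call lost without any 1 library of these 2 groups (adjusted p = 0.069 to 0.17).

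Somite genes divided, with 4 of 11 tested members higher and 7 lower (median -1.22). Tcf15, the factor that makes somites epithelial, measured 264, 173 and 159 TPM at 96h and 386, 332 and 376 TPM in TLSMGCL (log2 difference 0.91, SE 0.18, adjusted p = 0.0014). Uncx, a marker of the posterior part of each somite, measured 5.37, 2.59 and 1.82 TPM at 96h and 39.5, 33.6 and 34.5 TPM in TLSMGCL (log2 difference 3.20, SE 0.26, adjusted p = 5.1e-07). Tbx18, a marker of the anterior part, measured 7.16, 4.3 and 3.58 TPM at 96h and 0.393, 0.118 and 0.37 TPM in TLSMGCL (log2 difference -2.18, SE 0.19, adjusted p = 1.3e-06). The posterior marker was higher and the anterior marker lower in every TLSMGCL library than in any 96h library. Meox1, a general somite homeobox gene, measured 439, 385 and 354 TPM at 96h and 292, 249.8 and 296 TPM in TLSMGCL (log2 difference -0.49, SE 0.08, adjusted p = 4.5e-04), so a small fall left it among the well-measured genes. Foxc2 and Foxc1 fell by 1.62 and 1.22, and Meox2 and Pax3 rose by 1.35 and 0.73. Leaving out TLSMGCL replicate 1 or 3, or 96h replicate 2 or 3, ended the call of Pax3 (adjusted p = 0.053 to 0.067). At 120 h, Tbx18 stood at 8.03 ± 1.0 TPM in TLSMG and 0.493 ± 0.135 in TLSMGC, and Uncx at 23.6 ± 6.71 and 17.4 ± 1.16 TPM. For Tbx18 the direct difference from TLSMG was -2.80 ± 0.19 (SE). For Uncx the differences from TLSMG (0.61) and TLSMGC (1.00) did not pass the test as reported. Uncx was called above TLSMG on FPKM, after median-of-ratios scaling, with only 2 groups and without TLSMG replicate 3 (adjusted p = 0.020 to 0.032). It was called above TLSMGC on FPKM (0.045) and with only 2 groups (0.014).

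Dermomyotome and early muscle genes rose in 8 of 12 tested cases and fell in 2 (median 1.03). Dmrt2, which patterns the dermomyotome, measured 49.7, 28.8 and 23.3 TPM at 96h and 148, 119.7 and 143 TPM in TLSMGCL (log2 difference 2.05, SE 0.26, adjusted p = 3.1e-05). Eya2, a co-activator of the muscle programme, measured 3.3, 3.35 and 4.17 TPM at 96h and 35.2, 29 and 36.1 TPM in TLSMGCL (log2 difference 2.90, SE 0.16, adjusted p = 1.2e-08). Pax7, a marker of muscle progenitors, measured 0.97, 1.13 and 1.24 TPM at 96h and 4.3, 2.81 and 3.6 TPM in TLSMGCL (log2 difference 1.10, SE 0.20, adjusted p = 7.3e-04). No TLSMGCL value of these genes overlapped a 96h value, which held for 7343 of all 14290 tested genes. Alx4 and Prrx1, homeobox genes of dermal and limb mesenchyme, rose by 1.29 and 2.28. Met and Sim1, markers of the hypaxial edge, fell by 1.91 and 1.19. Lbx1, a marker of migrating muscle precursors, measured 0.653, 0.245 and 0.693 TPM at 96h and 0.795, 0.636 and 0.58 TPM in TLSMGCL and did not pass the test. Myf5, Myf6, Myod1 and Myog, the muscle-determining factors, had a mean below 1 TPM over the bulk libraries and were not tested. Eya2 was higher than in all other groups at 120 h, with 15.7 ± 2.66 TPM in Gastruloid, 6.76 ± 1.61 in TLSMG and 15.6 ± 2.21 in TLSMGC.

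Sclerotome genes also rose more often than they fell, 6 of 9 tested against 1 (median 0.82), but the members that define this fate were near 0 in TLSMGCL. Pax1, a defining sclerotome factor, measured 0.0273, 0.0814 and 0 TPM at 96h and 0.261, 0.143 and 0.109 TPM in TLSMGCL and did not pass the test, where Gastruloid held 61.7 ± 6.92 TPM and TLSMG 17 ± 3.81. Foxd2, a forkhead factor of the same fate, measured 1.09, 0.58 and 0.327 TPM at 96h and 0.153, 0.53 and 0.0739 TPM in TLSMGCL, against 49.1 ± 4.59 TPM in TLSMG. Its difference passed the test only without TLSMGCL replicate 2 (adjusted p = 0.039) or 96h replicate 3 (0.044). The Pax1 relative Pax9 rose only to 0.398, 0.178 and 0.467 TPM from 0, 0 and 0.0666 TPM. That rise was lost without any 1 library other than TLSMGCL replicate 2 (adjusted p = 0.064 to 0.14). Sox9, which drives cartilage fate, fell from 22.7, 17.7 and 16.3 TPM to 3.59, 3.26 and 3.37 TPM (log2 difference -2.16, SE 0.13, adjusted p = 2.1e-08). Rises also came from Twist1 (83.9, 62.7 and 56.1 TPM to 125, 101 and 129.6 TPM), Foxd1, Snai2 and Fmod, which other mesoderm also transcribes. Fmod, the matrix protein fibromodulin of tendon and cartilage, was listed at 0 in all 3 96h libraries and at 9.63, 5.59 and 6.38 TPM in TLSMGCL. In the hedgehog list 1 of 7 tested members rose and 3 fell. The pathway readouts Gli1 and Ptch1 fell by 1.17 and 0.38, and Gli2, a transducer, rose by 1.62. Shh and Noto, the defining notochord genes, were below the level for testing.

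Neural tube markers showed little movement: 1 of 13 tested rose, 3 fell and 9 did not pass (median -0.07), with a summed level of 102 to 129.7 TPM at 96h and 98.1 to 114 TPM in TLSMGCL. Sox2, shared by neural and neuromesodermal progenitors, measured 17.6, 27.4 and 32.1 TPM at 96h and 33.4, 33.2 and 29.2 TPM in TLSMGCL, and its difference of 0.34 did not pass the test (interval -0.02 to 0.70). Pax6, a neural tube factor, measured 0.492, 0.663 and 0.844 TPM at 96h and 0.126, 0.154 and 0.446 TPM in TLSMGCL. Sox1 measured 0.744, 0.757 and 1.77 TPM at 96h and 2.19, 1.91 and 1.85 TPM in TLSMGCL. Pax6 and Sox1 stayed at or below about 2 TPM in all 6 libraries, where TLSMG held 10.5 ± 4.88 and 17.8 ± 3.99 TPM. The same list summed to 239 to 369 TPM in TLSMG, and TLSMGCL was below TLSMG for 10 of the 13 members in the direct contrast, in which 35.6% of all tested genes were lower, and for 8 after median-of-ratios scaling. Stmn2, a microtubule regulator of neurons, fell by 2.52, and Tubb3, a neuronal tubulin, rose by 0.50. The Tubb3 call was lost without 96h replicate 1 (difference 0.33, adjusted p = 0.16) or any 1 TLSMGCL replicate (0.063 to 0.082). Without 96h replicate 3, 7 of the 13 neural tube genes were called instead of 4, with Sox1 (adjusted p = 0.013), Sox2 (0.026) and Sox3 (0.035) higher. Sox10, Foxd3, Tfap2a and Tfap2b, which define neural crest, were below the level for testing. Zic1 belongs to the neural crest list but also to the dorsal somite, so its rise names no cell type. Ets1, of the same list, rose by 1.00.

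Markers of pluripotent and germ cells fell. Of 12 tested pluripotency genes 11 fell and none rose (median -1.08), and their sum went from 408 to 522 TPM to 122 to 149 TPM. Pou5f1, which encodes OCT4, measured 85, 134 and 128 TPM at 96h and 15, 14.3 and 12.5 TPM in TLSMGCL (log2 difference -2.94, SE 0.25, adjusted p = 7.1e-07). Nanog measured 9.36, 18.6 and 15.7 TPM at 96h and 7.7, 5.25 and 6.19 TPM in TLSMGCL (log2 difference -1.04, SE 0.24, adjusted p = 0.0035). Neither reached 0 in any TLSMGCL library. All 6 calls among the 7 tested germ cell genes were falls, Prdm1 by 1.36, Tfap2c by 1.33 and Ifitm3 by 1.42. Dppa3, which both lists hold, measured 5.0, 12.7 and 8.35 TPM at 96h and 7.15, 3.34 and 3.8 TPM in TLSMGCL and did not pass the test. The falls of the presomitic, FGF and pluripotency genes thus went together, and the part of any 1 cell type in them was not tested.

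Lateral and intermediate mesoderm genes fell in most cases, 7 of 9 and 5 of 7 tested, with 1 rise in each list (medians -1.55 and -1.21). Osr1, an early marker of both, measured 16.2, 11.6 and 9.52 TPM at 96h and 0.0328, 0.0617 and 0.0459 TPM in TLSMGCL (log2 difference -3.65, SE 0.23, adjusted p = 4.5e-08). Foxf1, a lateral plate factor that hedgehog and BMP maintain, measured 14.2, 9.07 and 7.66 TPM at 96h and 0.626, 0.683 and 0.793 TPM in TLSMGCL (log2 difference -2.69, SE 0.19, adjusted p = 1.3e-07). Gata6, of heart and endoderm, measured 18.4, 6.84 and 5.86 TPM at 96h and 0.514, 0.86 and 0.455 TPM in TLSMGCL (log2 difference -2.66, SE 0.37, adjusted p = 6.9e-05). All 3 were below 1 TPM in every TLSMGCL library. Hand1, another lateral plate gene, was listed at 9.75, 0.977 and 0.445 TPM at 96h, with replicate 1 far above the rest, and at 0 in all 3 TLSMGCL libraries. Without that replicate the Hand1 difference was -0.76, and in a fit of these 2 groups alone it did not pass the test (adjusted p = 0.10). Lhx1 and Pax2, markers of the early nephric lineage, fell by 2.76 and 1.33. Direct contrasts put Osr1, Foxf1 and Pax2 below every other group at 120 h. Osr1 stood at 1.16 ± 0.319 TPM in Gastruloid, 10.3 ± 2.8 in TLSMG and 2.48 ± 0.93 in TLSMGC, against 0.0468 ± 0.0145 in TLSMGCL. The rises were Prrx1, given with the dermomyotome, and Emx2 (difference 0.46).

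Endothelial genes did not share a direction, with 4 of 12 tested higher, 1 lower and 7 not past the test (median 0.38). Etv2, the early master factor of blood vessels, measured 4.22, 3.69 and 3.58 TPM at 96h and 0.724, 1.05 and 1.69 TPM in TLSMGCL (log2 difference -1.19, SE 0.21, adjusted p = 4.9e-04). Cdh5, the adhesion protein of formed vessels, measured 0.198, 0.0718 and 0.193 TPM at 96h and 1.89, 3.7 and 4.06 TPM in TLSMGCL (log2 difference 1.83, SE 0.34, adjusted p = 7.7e-04). Cldn5, a tight junction protein of vessels, measured 0.102, 0.253 and 0.109 TPM at 96h and 2.75, 5.24 and 4.17 TPM in TLSMGCL (log2 difference 2.10, SE 0.25, adjusted p = 2.0e-05). Etv2 was thus lower and Cdh5 and Cldn5 were higher, all at a few TPM. Kdr, a VEGF receptor, measured 5.55, 2.7 and 2.22 TPM at 96h and 1.94, 3.31 and 3.73 TPM in TLSMGCL (interval of the difference -0.90 to 0.64). TLSMG held 95.3 ± 10.3 TPM of Kdr, and TLSMGCL was below TLSMG for all 12 tested genes in the direct contrast, also after median-of-ratios scaling, where 35.6% of all tested genes were lower as reported.

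In the gut and epithelium list 5 of 12 tested genes fell, 7 did not pass the test and none rose (median -0.65). The summed level went from 264 to 443 TPM to 72.7 to 97.8 TPM, and a large part of the sum at 96h was Trh. Cdh1, E-cadherin, measured 35.5, 39.8 and 36.4 TPM at 96h and 6.28, 7.0 and 7.05 TPM in TLSMGCL (log2 difference -2.30, SE 0.19, adjusted p = 6.1e-07). Trh, thyrotropin-releasing hormone, measured 267, 181 and 141 TPM at 96h and 17.3, 21.8 and 22.9 TPM in TLSMGCL (log2 difference -3.15, SE 0.24, adjusted p = 2.5e-07). Every TLSMGCL library was below every 96h library for both. Sox17, an endoderm factor, measured 5.25, 3.86 and 3.61 TPM at 96h and 1.51, 8.55 and 4.73 TPM in TLSMGCL, so TLSMGCL replicate 2 held the highest and replicate 1 the lowest value of all 6 libraries. Foxa1 and Foxa2, other defining endoderm factors, did not pass the test (differences -0.05 and -0.76). Without 96h replicate 3, 8 of the 12 genes of this list were called instead of 5, among them Foxa2 (difference -1.02, adjusted p = 0.024).

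Hox genes changed by position in the cluster. Of 8 tested genes of paralog groups 1 to 3, none rose and 6 fell (median -1.01), of 10 in groups 4 to 6, 3 rose and 5 fell (median -0.22), and of 9 in groups 7 to 9, 7 rose and none fell (median 1.09). The 12 listed genes of groups 10 to 13 were below the level for testing. Hoxb1, an anterior gene, measured 227, 228 and 224 TPM at 96h and 71.3, 62.4 and 63.5 TPM in TLSMGCL (log2 difference -1.77, SE 0.11, adjusted p = 5.3e-08). Hoxc9, a trunk gene, measured 0.664, 0.919 and 0.719 TPM at 96h and 9.35, 9.61 and 6.3 TPM in TLSMGCL (log2 difference 2.4, SE 0.20, adjusted p = 7.2e-07). Hoxa9 measured 0.0446, 0 and 0.0914 TPM at 96h and 4.7, 6.07 and 4.22 TPM in TLSMGCL (log2 difference 2.51, SE 0.22, adjusted p = 1.3e-06). Of these 3, Hoxb1 stayed the highest in TLSMGCL, and Hoxc9 and Hoxa9 rose from below 1 TPM in every 96h library. Hoxb9, another posterior gene, was well measured already at 96h and stood above Hoxb1 in TLSMGCL. It measured 34.8, 51.6 and 71.1 TPM at 96h and 98.8, 104 and 87.1 TPM in TLSMGCL, with TLSMGCL above 96h in all libraries (log2 difference 0.92 ± 0.19 SE). The posterior rise was smaller than without CHIR99021: Hoxb9 stood at 323 ± 27.9 TPM in Gastruloid, 291 ± 46.7 in TLSMG and 102 ± 8.19 in TLSMGC, and the difference of TLSMGCL from TLSMG was -1.57 ± 0.19 (SE) on the log2 scale. Hoxc6 and Hoxa7 rose by 2.21 and 2.16, and Hoxb5 fell by 1.97, so neighbours of the middle groups went both ways. Hoxd9 and Hoxd8 did not pass the test, with differences of 0.49 and -0.03.

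**Figure D4:**
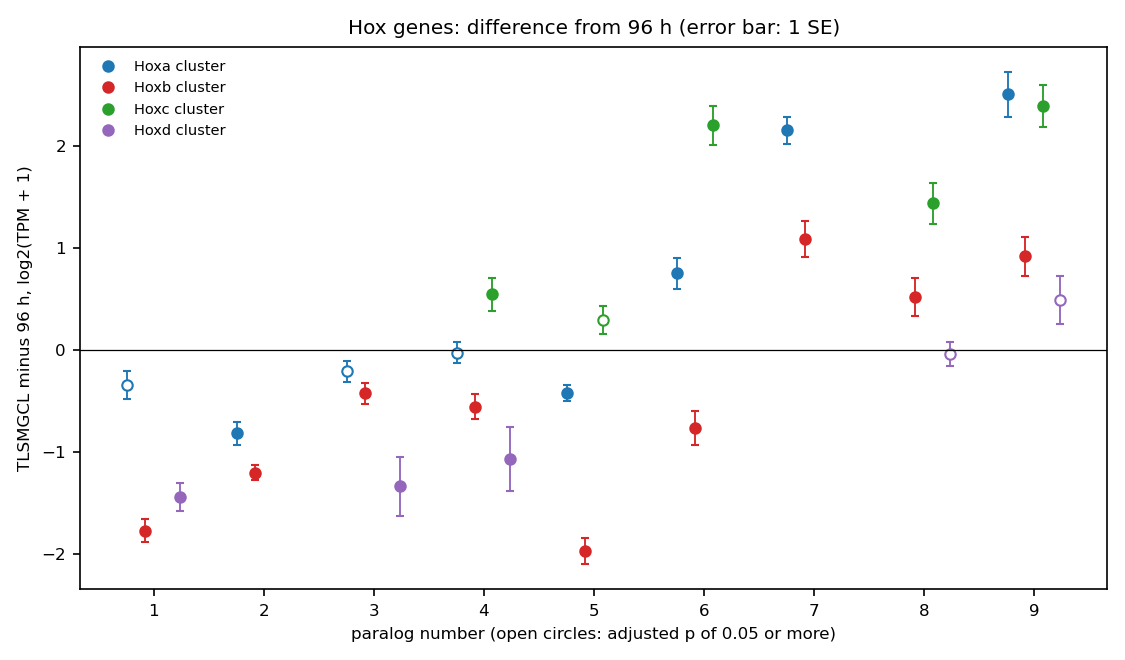
Log2 difference between TLSMGCL and 96h (vertical axis, bars of 1 SE) for the 27 tested Hox genes, by paralog number (horizontal axis) and coloured by cluster, with open circles for genes that did not pass the test. Genes of groups 1 to 3 lie below 0, genes of groups 7 to 9 lie above 0 apart from Hoxd8 at -0.03, and groups 4 to 6 spread to both sides.

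Genes of the extracellular matrix were exchanged more than lowered. In the basement membrane list 5 of 14 tested rose and 6 fell (median -0.13). Col18a1 measured 47, 44.3 and 54.1 TPM at 96h and 308, 275 and 298 TPM in TLSMGCL (log2 difference 2.58, SE 0.09, adjusted p = 2.6e-10). Col4a1 and Col4a2, the main collagen IV chains, rose by 0.82 and 0.98, and the laminin chain Lama5 rose by 1.00. The early laminin chain Lama1 measured 49.2, 46.7 and 45.5 TPM at 96h and 18.5, 14.5 and 17.6 TPM in TLSMGCL (log2 difference -1.44, SE 0.08, adjusted p = 1.6e-08). Fn1, fibronectin, the matrix protein that somites assemble on, measured 1397, 1133 and 1073 TPM at 96h and 153, 126 and 156 TPM in TLSMGCL (log2 difference -3.04, SE 0.14, adjusted p = 2.5e-09). Its main receptor chain Itga5 fell by 1.01. Fibrillar and other collagens rose in 6 of 11 tested cases and fell in 3 (median 0.65). Col2a1, of notochord, sclerotome and cartilage, measured 8.43, 8.21 and 6.84 TPM at 96h and 79, 67.7 and 77.7 TPM in TLSMGCL (log2 difference 3.10, SE 0.11, adjusted p = 2.4e-10), and Col1a2 rose by 2.45. The collagen and fibronectin shifts left no overlap between the 2 groups, which held for 7343 of all 14290 tested genes. In the adhesion list as a whole 5 of 14 tested rose and 7 fell. Cdh11, a mesenchymal cadherin, rose by 1.42, and Cdh2, N-cadherin, by 0.36. The Cdh2 call was lost without TLSMGCL replicate 1 or 3 or 96h replicate 1 (adjusted p = 0.050 to 0.067).

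Growth and imprinted genes gave some of the larger changes, with 6 of 17 tested higher and 4 lower (median 0.12). Mest, a paternally expressed mesoderm gene, measured 84.7, 60.8 and 72 TPM at 96h and 691, 564 and 672 TPM in TLSMGCL (log2 difference 3.14, SE 0.11, adjusted p = 2.6e-10). Igfbp5, a secreted IGF-binding protein, measured 4.16, 3.96 and 4.95 TPM at 96h and 91.3, 58.1 and 79.7 TPM in TLSMGCL (log2 difference 3.83, SE 0.21, adjusted p = 9.6e-09). Phlda2, a maternally expressed growth inhibitor, measured 66.4, 70.6 and 79 TPM at 96h and 3.92, 6.53 and 3.59 TPM in TLSMGCL (log2 difference -3.72, SE 0.17, adjusted p = 2.0e-09), and Peg3 fell by 2.43. All 4 had separate groups, which held for 7343 of all 14290 tested genes and for Igfbp5 was a condition of the naming. Igf2, a growth factor, measured 194, 86.9 and 265 TPM at 96h and 383, 193 and 844 TPM in TLSMGCL, so widely spread within both groups that its difference of 1.26 (interval -0.06 to 2.58) did not pass the test. Without TLSMGCL replicate 2 it was 1.78 (adjusted p = 0.043). Against TLSMG, the rise of Igfbp5 was smaller: TLSMG held 464 ± 92.5 TPM and Gastruloid 712 ± 42.2, and the direct difference from TLSMG was -2.59 ± 0.21 (SE).

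Metabolic and cell cycle genes changed little in size. Of 19 tested glycolysis genes 7 rose and 5 fell (median 0.06), with the largest being the fall of Aldoc, a brain-type aldolase, at 64.1, 60.6 and 59.3 TPM at 96h and 18.5, 19.8 and 15.3 TPM in TLSMGCL (log2 difference -1.73, SE 0.13, adjusted p = 2.5e-07). Pgk1, phosphoglycerate kinase, measured 700.1, 705 and 633 TPM at 96h and 1081, 1220.5 and 1092 TPM in TLSMGCL (log2 difference 0.73, SE 0.08, adjusted p = 8.0e-06), and Pdk1, which limits pyruvate use by mitochondria, rose by 0.81. Slc2a1, the main glucose transporter, fell by 0.43. That fall was lost without 96h replicate 3 (adjusted p = 0.051). At 120 h, TLSMGCL was above TLSMG for 13 of the 19 (9.31% of all tested genes were), or 15 after median-of-ratios scaling, and above TLSMGC for 0 (0.406%). In the cell cycle list 3 of 20 tested rose and 8 fell (median -0.17). Ccnb2, a mitotic cyclin, fell by 0.61 and Mcm3, of the replicative helicase, by 0.50. Mki67 and Top2a, general proliferation markers, did not pass the test (differences -0.28 and 0.02). Cdkn1a, the cell cycle inhibitor p21, measured 26, 37.9 and 28.1 TPM at 96h and 33.6, 92.7 and 101 TPM in TLSMGCL, so replicate 1 lay near the 96h values and the others well above (adjusted p = 0.0083). It did not pass the test when only these 2 groups were fitted (adjusted p = 0.062). Ccnd2, cyclin D2, measured 102, 118 and 135 TPM at 96h and 227, 184 and 215 TPM in TLSMGCL (log2 difference 0.81, SE 0.14, adjusted p = 4.1e-04). Mitochondrial transcripts gave 1 call among 13, mt-Co3 at -0.63, which was lost without TLSMGCL replicate 2 (adjusted p = 0.055). Without that library 5 others, mt-Co1, mt-Co2, mt-Cytb, mt-Nd2 and mt-Nd4l, were called higher, and the median of the list was 0.49.

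DNA methylation genes gave 5 falls and no rise among 10 tested. Without TLSMGCL replicate 3, or 96h replicate 1 or 2, 3 were called, and without TLSMGCL replicate 2 there were 3 falls and 2 rises, of Tet3 and Lin28b. Dnmt3b, a methyltransferase of early embryos, measured 106, 102 and 101 TPM at 96h and 52.8, 48.6 and 54.6 TPM in TLSMGCL (log2 difference -0.98, SE 0.07, adjusted p = 1.3e-07), and Lin28a, which blocks maturation of let-7, fell by 0.83. Of 11 tested immediate early and stress genes, which respond to handling, 2 rose and 3 fell. Jun measured 23, 16.3 and 15 TPM at 96h and 3.26, 3.61 and 3.31 TPM in TLSMGCL (log2 difference -2.10, SE 0.19, adjusted p = 1.7e-06), and Atf3 and Ier2 rose by 0.64 and 0.62. The part of handling in other differences was not tested.

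**Figure D5:**
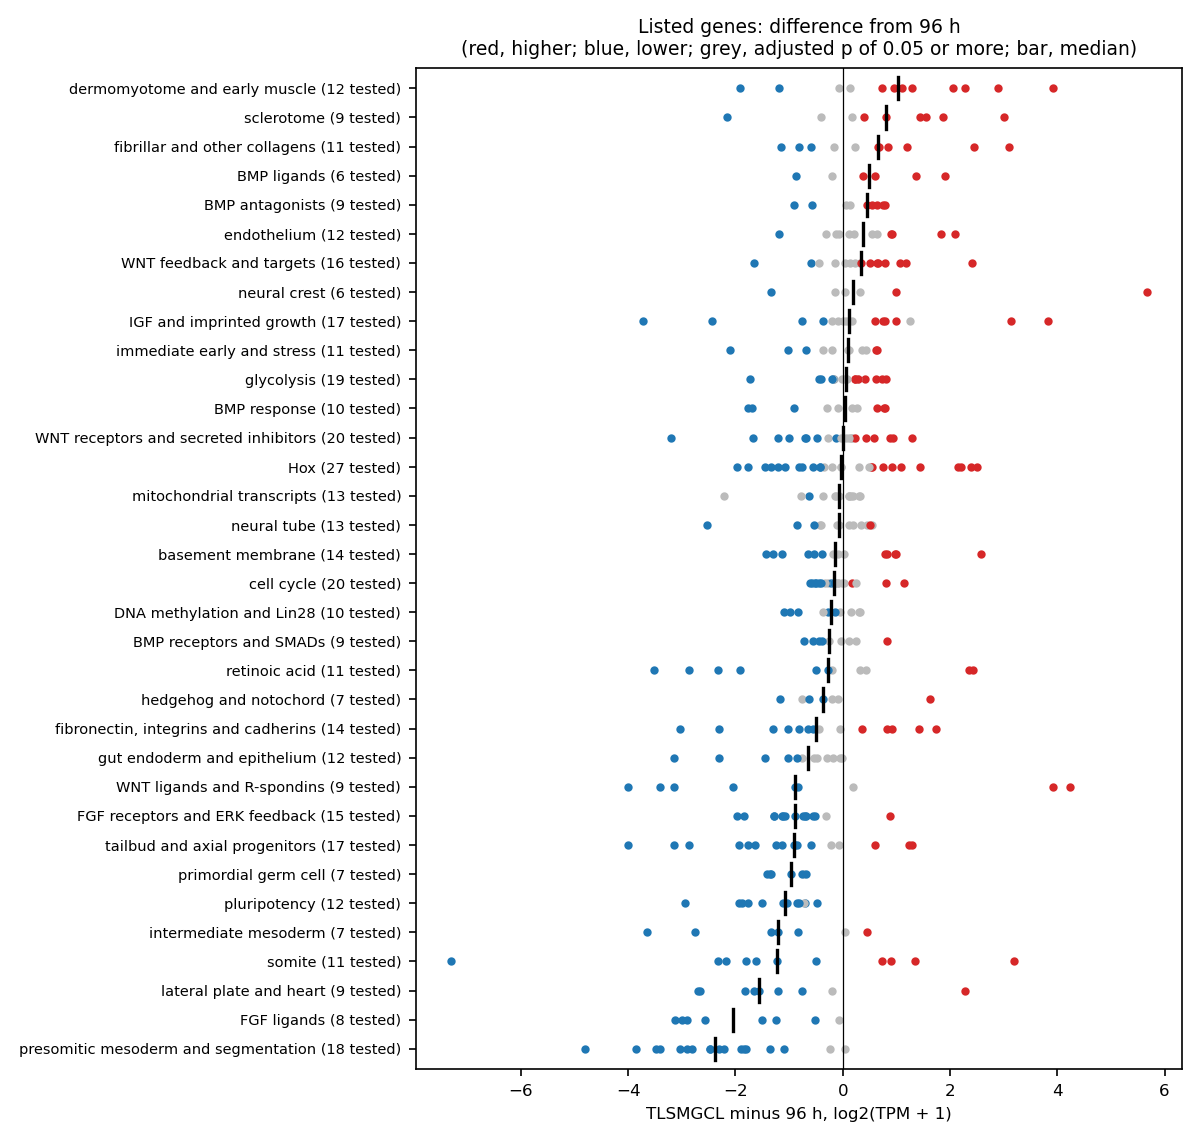
Log2 difference between TLSMGCL and 96h (horizontal axis) of every tested member of the 34 gene lists (rows, ordered by median), 1 point per gene, red where it rose, blue where it fell, grey where it did not pass the test, with a bar at the median. The presomitic list lies lowest with 16 falls among 18, and the dermomyotome list highest with 8 rises among 12.

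The change from 96h was then compared with the change in the other groups at 120 h through the direct contrasts. Against Gastruloid 5162 genes differed (36.1%), against TLSMG 6416 (44.9%), and against TLSMGC 169 (1.18%). The direction of the calls depended on scaling: against TLSMG 1330 were higher and 5086 lower in TLSMGCL on TPM, 2837 and 2749 after median-of-ratios scaling, and 2154 and 3552 on FPKM. Against TLSMGC the split on FPKM was 98 and 121. Median-of-ratios scaling moved the median of all genes in TLSMGCL minus TLSMG from -0.18 to 0.01, and single genes are best read relative to that shift. For 452 genes (3.16%) the change from 96h passed the test in opposite directions in TLSMGCL and TLSMG and the direct contrast passed too. Of these 74 rose and 378 fell in TLSMGCL. That split was counted on TPM only and may depend on scaling too, as the change of TLSMG from 96h was not refitted. Of the 452 genes, 42 are in the gene lists. They include the rises of Wnt6, Notum, Axin2, Bmp7 and Stra6 and the falls of Id1, Id3, Etv2, Peg3 and Tbx18. Stra6, for example, stood at 68.5 ± 2.57 TPM (SD, n = 3) at 96h, 33.1 ± 7.11 in TLSMG and 357 ± 24.8 in TLSMGCL.

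TLSMGCL differed in 1 direction from all 3 other groups at 120 h, and from 96h, at 49 genes (0.343%), 19 above and 30 below the others. There were 12 such genes in fits of only 2 groups, 21 and 24 without TLSMGCL replicate 1 or 3, and 15 without TLSMGC replicate 2. Of the 19 above, 15 had risen from 96h and 4 had fallen less, and of the 30 below, 26 had fallen and 4 had risen less. The 8 largest by change from 96h were Osr1, Tnnt2, Bmp3, Eya2, Foxf1, Trim62, Pde4b and Aldh1a2. Trim62, a ubiquitin ligase, measured 4.11, 3.95 and 3.77 TPM at 96h and 34.1, 26.4 and 31.5 TPM in TLSMGCL (log2 difference 2.67, SE 0.14, adjusted p = 9.7e-09). Its means at 120 h were 12 ± 1.23, 8.67 ± 1.26 and 18.5 ± 3.98 TPM in Gastruloid, TLSMG and TLSMGC. Pde4b, which breaks down cyclic AMP, measured 0.568, 0.82 and 0.786 TPM at 96h and 9.66, 8.33 and 12 TPM in TLSMGCL (log2 difference 2.66, SE 0.19, adjusted p = 1.6e-07), against 3.81 ± 1.08 TPM in TLSMGC. Its 3 TLSMGCL values lay above those of every other bulk library. Bmp7, whose protein signals through the receptors that LDN is known to block, measured 33.8 ± 5.02 TPM in TLSMGCL against 22.1 ± 2.84 in TLSMGC (log2 difference 0.59, SE 0.12, adjusted p = 0.033). Smad3, a transducer of the TGF-beta and Nodal branch, measured 48.5, 41.4 and 42.5 TPM at 96h and 97.7, 79.5 and 96.2 TPM in TLSMGCL (log2 difference 1.03, SE 0.10, adjusted p = 3.8e-06), and TLSMGC held 65.9 ± 8.71 TPM. Cldn5, Etv2 and Col3a1, of vessels and mesenchyme, were among the 30 below. Against TLSMGC, Osr1, Foxf1, Eya2, Pde4b and Aldh1a2 passed the test without any 1 library of these 2 groups. Tnnt2, Bmp3, Trim62, Bmp7 and Smad3 did not pass without TLSMGCL replicate 1 or 3 or TLSMGC replicate 2 or 3 (adjusted p = 0.071 to 0.18), nor did Tnnt2 without TLSMGCL replicate 2 (0.067). Cldn5, Etv2 and Col3a1 did not pass without TLSMGCL replicate 1 or TLSMGC replicate 2 (0.051 to 0.15), and Etv2 and Col3a1 also failed without TLSMGCL replicate 2 (0.095 and 0.073). Etv2 was not called without TLSMGC replicate 1 (0.053) and Col3a1 without TLSMGC replicate 3 (0.061).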

How the data were processed

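Poly(A) RNA of pooled structures was sequenced with paired ends, and the authors deposited for each bulk library a StringTie table with coverage, FPKM and TPM per gene. Per the submitters' processing notes, cutadapt 2.4, STAR 2.7.3a and StringTie 2.0 were used with the build mm10. The annotation release is not given in the sources used here, and 54409 of 54446 gene identifiers were found in GENCODE vM21. TPM of the lines of 1 gene identifier were summed, and for a symbol on several identifiers the one with the highest mean was taken. The deposited tables hold no read counts, so the depth of each library is unknown, and coverage signal per FPKM unit, as deposited, was 4.00 to 4.32 at 96h and 3.18 to 4.68 in TLSMGCL.

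Genes averaging 1 TPM or more in the 15 bulk libraries were fitted on log2(TPM + 1) with limma 3.58.1 (R 4.3.3), with a trend in the prior variance and all 5 groups in 1 fit. P-values were two-sided and adjusted over 14290 genes by Benjamini-Hochberg, with a threshold of 0.05. A pseudocount of 1 understates fold changes of low genes. The fit was tested on simulated data. Contrasts of TLSMGCL with the other groups at 120 h tested where changes from 96h differed. Genes named were the 12 largest rises and falls, with a mean of at least 5 TPM in the higher group and groups that did not overlap, the 3 largest calls of each list, the 8 largest apart from all groups at 120 h, the smallest adjusted p, and list members whose role is described. The members, the 34 lists (476 genes, 402 tested) and the tests were chosen with earlier results of these data known. Replicate numbers did not pair the samples (correlations of deviations -0.04, -0.01 and -0.03). Alternatives were a pseudocount of 0.1, no filter, a mean of at least 5 TPM, FPKM, median-of-ratios scaling, only 2 groups, a replicate block, a minimum log2 difference of 1 and leaving out each library. Promoter windows came from RefSeq. The 5 single-cell samples were not used here, and some genes that the naming rule took are not reported here. Tables and figures used Python 3.11.15, pandas 2.3.3, numpy 2.4.6 and matplotlib 3.10.9.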

Additional observations from a re-analysis of the deposited data

Results flagged for a closer look

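Given here are 15 named genes that moved past the test in opposite directions from 96h in TLSMGCL and in TLSMG (Matrigel alone). They are not all such genes: Axin2, Stra6, Peg3 and Tbx18, named above, are among the others. The direct contrast of TLSMGCL with TLSMG tests the difference between both changes in limma. It gave Benjamini-Hochberg adjusted p-values of 4.0e-10 to 4.1e-05 for the 15. Both changes share the 3 libraries at 96h. The change in TLSMG was tested on TPM only, so the direction of a small one, such as 0.29 for Ifitm3, may depend on scaling. Log2 changes from 96h are given first for TLSMGCL and then for TLSMG.

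Among WNT genes of this set, a ligand and 2 feedback genes rose in TLSMGCL and fell in TLSMG: Wnt6 (4.24 and -1.80, direct difference 6.03), Notum (2.41 and -1.58, direct difference 3.99) and Nkd1 (1.18 and -1.22, direct difference 2.41). The cell cycle inhibitor Cdkn1a (1.14 and -1.17, direct difference 2.31) did so too. Its values in TLSMGCL were 33.6, 92.7 and 101 TPM and its mean in TLSMG was 13 ± 1.72 TPM (SD, n = 3). The BMP ligand and the activin and BMP antagonist of this kind were Bmp7 (1.37 and -0.35, direct difference 1.72) and Fst (0.78 and -0.54, direct difference 1.32).

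The BMP targets fell in TLSMGCL and rose in TLSMG: Id1 (-1.68 and 0.67, direct difference -2.35) and Id3 (-1.77 and 1.62, direct difference -3.39). The vessel factor Etv2 (-1.19 and 2.18, direct difference -3.37) moved in the same way. So did 2 genes of the germ cell list, Prdm1 (-1.36 and 1.09, direct difference -2.45) and Ifitm3 (-1.42 and 0.29, direct difference -1.71). The hedgehog readout Gli1 (-1.17 and 0.51, direct difference -1.67) and the ventral neural factor Olig2 (-0.54 and 1.18, direct difference -1.72) were also of this kind. Olig2 was at most 0.19 TPM in TLSMGCL. The basement membrane linker Nid1 (-1.29 and 0.86, direct difference -2.15) and the AP-1 factor Junb (-0.69 and 0.84, direct difference -1.53) made up the rest of this set.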

How the results depend on the processing

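A minimum log2 difference of 1 left 1019 calls in TLSMGCL versus 96h (394 higher, 625 lower), 841 in TLSMGCL versus Gastruloid, 973 in TLSMGCL versus TLSMG and 46 in TLSMGCL versus TLSMGC. In a fit of only 2 groups TLSMGC gave 43 calls against 169. Without 1 replicate the calls were 4805 to 5439 against 96h, 4116 to 5500 against Gastruloid, 5080 to 6243 against TLSMG and 56 to 198 against TLSMGC (70 without TLSMGCL replicate 1, 78 without TLSMGCL replicate 3, 56 without TLSMGC replicate 2). Counts stayed within 1.5 times of those reported under the other pseudocount, filters, scalings and FPKM. The split of calls against 96h was 2487 higher and 3160 lower as reported, 2884 and 2977 after median-of-ratios scaling, 2933 and 2887 on FPKM, and 2693 and 2746 without TLSMGCL replicate 2. With a replicate block, for samples that share only a number, calls were 5433, 4936, 6187 and 122 in the same order, and in none of these comparisons did every library correlate best with its own number. For TLSMGCL versus 96h, none of the 253 genes taken by the naming rule or described reversed. There, 32 had a call that changed under some alternative, 19 of them losing it. These gene counts leave out the minimum log2 difference of 1, which smaller differences cannot pass. They also leave out the direct contrasts at 120 h, where further calls were lost, as given with the genes above. Among lists, a mean of at least 5 TPM lowered the number tested and called. What can be detected of small changes in low genes is limited by the unknown depth and by 3 libraries a group.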

Other observations

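Several genes outside the gene lists also set TLSMGCL apart from every other group at 120 h, and are named here after their values were seen. Jag1, a Notch ligand, measured 20.9, 15.8 and 14.3 TPM at 96h and 7.17, 5.81 and 6.81 TPM in TLSMGCL (log2 difference -1.23, SE 0.12, adjusted p = 3.7e-06), against 10 ± 0.625 TPM (SD, n = 3) in Gastruloid, 11.7 ± 0.327 in TLSMG and 11 ± 1.08 in TLSMGC. Col14a1, a collagen that coats fibrils, measured 4.82, 1.57 and 1.77 TPM at 96h and 0.62, 0.486 and 0.335 TPM in TLSMGCL (log2 difference -1.23 ± 0.25 SE). Both were lower in all 3 TLSMGCL libraries than in any 96h library. Efnb1, ephrin B1, a ligand that acts at somite borders, measured 37.9, 42.1 and 45 TPM at 96h and 57.4, 52.7 and 56.7 TPM in TLSMGCL (log2 difference 0.41, SE 0.09, adjusted p = 0.0018). Smoc1, a matrix protein that antagonises BMP, measured 349.7, 372 and 365 TPM at 96h and 256, 220.1 and 248 TPM in TLSMGCL (log2 difference -0.59, SE 0.09, adjusted p = 2.2e-04). In TLSMGC, Efnb1 stood at 41.9 ± 2.64 TPM and Smoc1 at 148 ± 20.6 TPM. Against TLSMGC, Smoc1 passed the test without any 1 library of these 2 groups and the call of Efnb1 was lost without each of them (adjusted p = 0.056 to 0.16). Jag1 did not pass without TLSMGCL replicate 2 or 3 or TLSMGC replicate 1 or 2 (0.056 to 0.083), nor Col14a1 without any 1 library other than TLSMGC replicate 3 (0.063 to 0.11). Against Gastruloid, Efnb1 was lost without TLSMGCL replicate 1 or 3 or Gastruloid replicate 1 or 3 (0.0511 to 0.119). Col14a1 was lost there without TLSMGCL replicate 3 or Gastruloid replicate 2 or 3 (0.0574 to 0.0817). Against TLSMG, Efnb1 was lost without TLSMGCL replicate 1 or 3 or TLSMG replicate 1 (0.0551 to 0.0845).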
